A study of Mus musculus with 6 samples.

Results

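DNA methylation was examined at 7 genes, those of the Tribbles pseudokinases Trib1, Trib2 and Trib3 and of the C/EBP transcription factors Cebpa, Cebpb, Cebpd and Cebpe, in splenic naive B cells with and without Tet2. The genes were listed by name, with Trib1 leading the list because a difference between the genotypes had been seen there. Each was taken with 10 kb on either side of its span on GRCm38, and every CpG cytosine with 10 or more reads in all 6 libraries was used. The 7 are among 21900 protein-coding genes of the RefSeq table, and their windows held 1049 of the 1457048 cytosines measured in all libraries, and 42 of the 108802 tiles of 1 kb that held at least 3 of them and could be tested. The series compared 3 libraries from Tet2 knockout (KO) mice with 3 from Tet2 wild-type (WT) mice, all of strain C57BL/6, profiled by enhanced reduced representation bisulfite sequencing (ERRBS). In this assay restriction fragments rich in CpG are treated with bisulfite and sequenced, so that an unmethylated cytosine is read as T and a methylated or hydroxymethylated one as C. The sample labels name naive B cells and were followed, although the design text of the series speaks of germinal center B cells. Age, sex and the kind of knockout allele are not given, nor is it said that the libraries of a genotype are from different animals, so any p-value measures the spread between libraries, which may be technical.

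Tribbles proteins have the fold of a kinase but act mainly as scaffolds. TRIB1 and TRIB2 bind C/EBP proteins and the ubiquitin ligase COP1 together, which leads to degradation of C/EBPα. C/EBP proteins are basic leucine zipper transcription factors. C/EBPα and C/EBPε drive granulocyte development, and forced C/EBPα or C/EBPβ turns B cells towards macrophages. TET2, the enzyme missing in the KO, oxidises 5-methylcytosine on the way to its removal.

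Depth was a median of 92 to 110 reads per listed cytosine. Coverage summed over the listed cytosines, where a read counts at each cytosine it covers, ran from 168455105 to 207065050 per library. It was 168455105, 187737039 and 192898507 in KO 1, KO 2 and KO 3. In WT 1, WT 2 and WT 3 it was 200499972, 207065050 and 189893255, so only WT 3 lay below a KO library. The knockout label was checked at Tet2 itself (chromosome 3), where 6 cytosines from 133486189 to 133486297 were listed with 28 to 71 reads in the WT libraries and in no KO library, in files that start at 10 reads. The cell type could be checked only weakly, since 9 of 31 marker genes of B cells and other blood lineages had a tested tile over a gene start or end. Of 3 B cell markers in WT, Pax5, the factor that keeps B cell identity, stood at 0.201% ± 0.192, Cd22 at 30.01% ± 3.13 and Blk at 67.0% ± 7.41 (SD, n = 3). The T cell markers Cd4, Cd5 and Thy1 stood at 0.886% ± 1.53, 93.3% ± 1.66 and 93.6% ± 2.94, and Csf3r, a receptor of granulocytes, at 4.42% ± 1.05. The red cell markers Slc4a1 and Epor stood at 97.9% ± 1.84 and 48.5% ± 4.80 in the tiles of Slc4a1 and at 65.0% ± 2.36 in Epor. For Blk, Cd4, Thy1 and Slc4a1 a tile over either gene end was taken, which may not be the start. These levels did not separate B cell genes from genes of other lineages.

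Promoter sequences from RefSeq (GRCm38.p6) were used for 4 of the 7 genes. The 250 bases before each start are shown because none of their measured cytosines averaged over 1.17% in these cells. Sequences run 5′ to 3′ on the strand of the gene. Capitals mark the cytosines measured in all 6 libraries, as C where the printed strand was read and as G where the opposite strand was read.
Trib2 (chr12:15816786-15817035, minus strand): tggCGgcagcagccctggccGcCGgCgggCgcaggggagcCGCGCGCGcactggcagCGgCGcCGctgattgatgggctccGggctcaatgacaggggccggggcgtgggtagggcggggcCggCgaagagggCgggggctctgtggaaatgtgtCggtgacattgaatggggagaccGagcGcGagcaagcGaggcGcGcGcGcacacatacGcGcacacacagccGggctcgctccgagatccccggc
Trib3 (chr2:152344061-152344310, minus strand): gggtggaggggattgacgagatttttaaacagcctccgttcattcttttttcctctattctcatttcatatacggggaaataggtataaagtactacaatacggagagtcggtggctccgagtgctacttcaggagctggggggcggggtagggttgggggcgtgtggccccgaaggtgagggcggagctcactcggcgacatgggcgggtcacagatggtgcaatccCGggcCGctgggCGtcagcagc
Cebpa (chr7:35119043-35119292, plus strand): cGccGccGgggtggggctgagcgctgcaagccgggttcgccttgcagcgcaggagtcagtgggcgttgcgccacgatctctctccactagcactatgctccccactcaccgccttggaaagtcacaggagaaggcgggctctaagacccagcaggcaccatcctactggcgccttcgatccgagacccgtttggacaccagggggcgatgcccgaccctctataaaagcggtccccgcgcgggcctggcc
Cebpb (chr2:167688665-167688914, plus strand): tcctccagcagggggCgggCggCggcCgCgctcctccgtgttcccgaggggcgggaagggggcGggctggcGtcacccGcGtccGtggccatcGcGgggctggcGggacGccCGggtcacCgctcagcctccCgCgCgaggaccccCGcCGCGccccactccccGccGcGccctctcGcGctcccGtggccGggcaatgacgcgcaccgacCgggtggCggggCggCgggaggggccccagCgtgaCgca

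The 4 stretches differed in CpG density and in how much of it was read. Trib2 has 34 CpG dinucleotides here with 37 cytosines measured, and Cebpb 41 with 39 measured. Trib3 has 16 with 6 measured and Cebpa 22 with 3, against a median of 6 CpG over the 32851 promoters in the table. The site CCGG, which MspI cuts to make ERRBS fragments, occurs 6 times in Trib2, 3 times in Cebpb, 2 times in Cebpa and 1 time in Trib3, and 47.1% of promoters hold it. The letters TTGCATCA, a composite site of C/EBP and ATF proteins, and TTGCNNAA, a form of the C/EBP site, were searched on both strands, and neither pattern contains the other. They occur 0 times in these 4 stretches and in 0.791% and 9.56% of promoters. Over the measured cytosines, methylation was 0.0363% ± 0.0336 in KO and 0.242% ± 0.263 in WT at Trib2, 0.597% ± 0.585 and 0.0444% ± 0.0770 at Trib3, and 0.175% ± 0.150 and 0.180% ± 0.0886 at Cebpb (SD, n = 3). At Cebpa the 3 cytosines had 0 methylated reads in KO and stood at 0.516% ± 0.686 in WT.

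**Figure D1:**
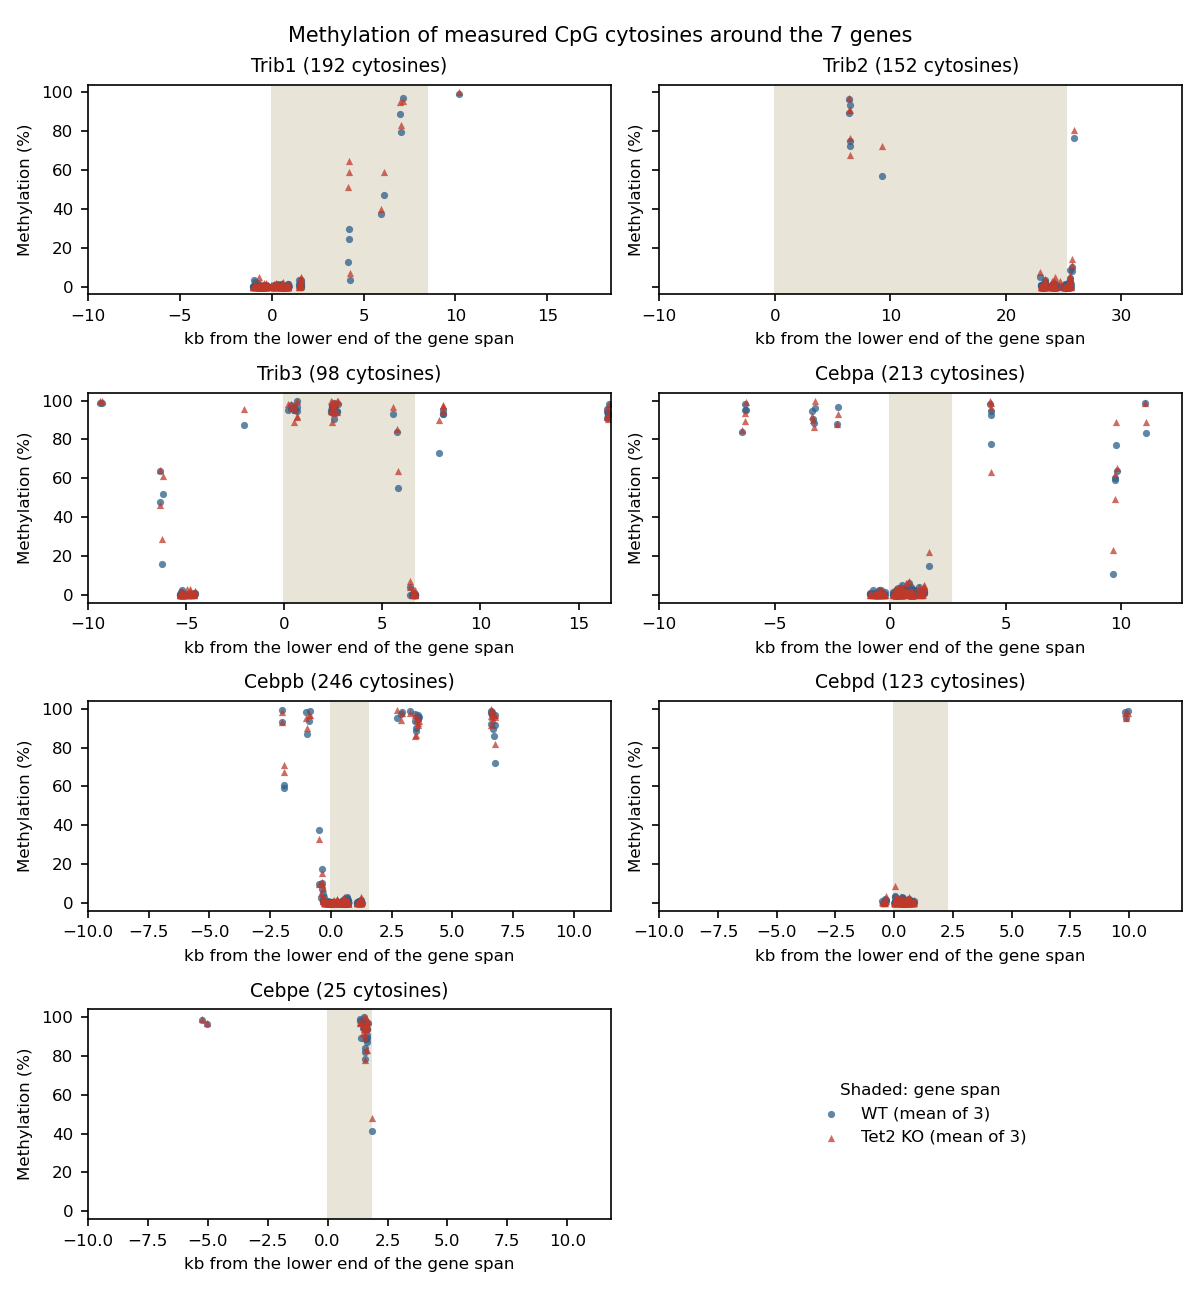
Methylation (%, y axis) of each measured cytosine against its distance in kb from the lower end of the gene span (x axis), as the mean of 3 WT libraries (circles) and of 3 KO libraries (triangles), with gene spans shaded. Trib1, Trib2, Cebpa, Cebpb and Cebpd each hold 1 broad unmethylated stretch at a gene end, Cebpe holds none, and the Trib1 cytosines 4.17 kb from the lower end stand apart between the genotypes.

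Most of the measured DNA around these genes was unmethylated in both genotypes. Of the 1049 cytosines, 906 averaged below 10% over the 6 libraries, 44 stood between 10% and 90%, and 99 at 90% or above. The assay favours DNA rich in CpG, and the share of all measured cytosines below 10% is not given here. By reads, a different measure, cytosines below 10% took 64.0% in KO and 69.2% in WT over the whole series. Whether low methylation is particular to these genes was not tested. The gene spans are 59648654 to 59657099 on chromosome 15 for Trib1, 15791725 to 15816962 on chromosome 12 for Trib2 and 152337425 to 152344060 on chromosome 2 for Trib3. Cebpa spans 35119293 to 35121928 on chromosome 7 and Cebpb 167688915 to 167690432 on chromosome 2. Cebpd spans 15887286 to 15889545 on chromosome 16 and Cebpe 54710363 to 54712174 on chromosome 14. The plot of cytosines around the genes shows the low values as unbroken runs. The run at Trib1 covered 182 cytosines over 2.62 kb (59647638 to 59650259 on chromosome 15), at 0.343% ± 0.0710 in KO and 0.227% ± 0.0386 in WT. Trib2 had a run of 143 cytosines over 2.70 kb at its upper end on chromosome 12, at 0.467% ± 0.0959 and 0.493% ± 0.0876. Cebpa had 191 over 2.36 kb on chromosome 7, at 0.730% ± 0.145 and 0.829% ± 0.0761. Cebpb had 210 over 1.61 kb on chromosome 2 and Cebpd 120 over 1.33 kb on chromosome 16.

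Cytosines below 10% made up 56.1% of those at Trib3 and 0% at Cebpe, against 86.6% to 97.6% at the other 5 genes. Trib3, a pseudokinase induced by the integrated stress response, was methylated along most of its span on chromosome 2, with 36 cytosines inside it averaging 67.95% ± 0.402 in WT and 68.6% ± 0.505 in KO. Its longest unmethylated run, 39 cytosines, lay under the neighbouring gene Rbck1, which encodes a subunit of a linear ubiquitin ligase. Cebpe, the C/EBP gene of late granulocytes, was the only one of the 7 with 0 measured cytosines below 10%. Inside its span on chromosome 14, 22 cytosines averaged 91.9% ± 0.324 in WT and 93.6% ± 1.37 in KO.

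In tiles, 20 of the 42 stood below 10% in WT, and their differences between KO and WT lay between -0.445 and 0.739 percentage points. The tile over the lower end of Trib1 (76 cytosines) was at 0.298% ± 0.130 in KO and 0.123% ± 0.0903 in WT. That over the Trib2 start (34 cytosines) was at 0.0846% ± 0.0577 and 0.283% ± 0.273, and that over the Trib3 start (10 cytosines) at 0.381% ± 0.347 and 0.0627% ± 0.0578. The start of Cebpa (95 cytosines) stood at 0.783% ± 0.157 and 0.749% ± 0.136, and that of Cebpb (73 cytosines) at 3.03% ± 0.567 and 3.48% ± 0.445. The tile over the lower end of Cebpd, an early response gene of inflammation, held 98 cytosines and stood at 0.638% ± 0.345 and 0.684% ± 0.153. Over the upper end of Cebpe, 7 cytosines stood at 88.4% ± 2.39 and 86.4% ± 5.06. KO and WT libraries overlapped in all 7 of these tiles.

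Inside Trib1, 1 tile was far more methylated in KO than in WT. It lies on chromosome 15 from 59652001 to 59653000, within the gene span. The tile stood at 43.3%, 49.2% and 46.3% in KO 1, KO 2 and KO 3, from 295 to 365 reads. In WT 1, WT 2 and WT 3 it stood at 12.2%, 21.4% and 18.05%, from 491 to 508 reads. The groups did not overlap. The 95% Wilson interval of the lowest KO library ran from 38.3% to 48.4%, and that of the highest WT library from 18.0% to 25.2%. These intervals are for counting error only, and are too narrow even for that. The read numbers are sums over the cytosines of the tile, so a read over several cytosines counts at each. PCR copies of a molecule are counted as reads too. The pooled difference was 28.9 points, from 46.25% ± 2.93 in KO and 17.2% ± 4.65 in WT (SD, n = 3). This contrast was known when the genes were chosen, so the difference is given as a description with no test.

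Its signal came from few cytosines. The tile holds 4, of 3 CpG dinucleotides within 66 bp, the first of them 4.17 kb above the lower end of the gene. The cytosine at 59652827 (plus strand) stood at 49.3%, 43.3% and 61.1% in the KO libraries and at 7.35%, 20.2% and 9.84% in the WT libraries. The CpG that follows was read on both strands. Its plus strand cytosine at 59652851 averaged 64.7% ± 10.6 in KO and 24.4% ± 5.23 in WT, and its minus strand cytosine at 59652852 averaged 58.9% ± 13.0 and 29.4% ± 11.5. At each of these 3 cytosines every KO library lay above every WT library, from a lowest KO value of 43.3% to a highest WT value of 36.6%. The last cytosine, 59652892, was low in both genotypes, at 6.93% ± 8.82 and 3.17% ± 2.23, with 16.9% in KO 2 and 5.65% or less in the other 5 libraries. Cytosines of 1 strand share their reads, so the 4 values are not independent.

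**Figure D2:**
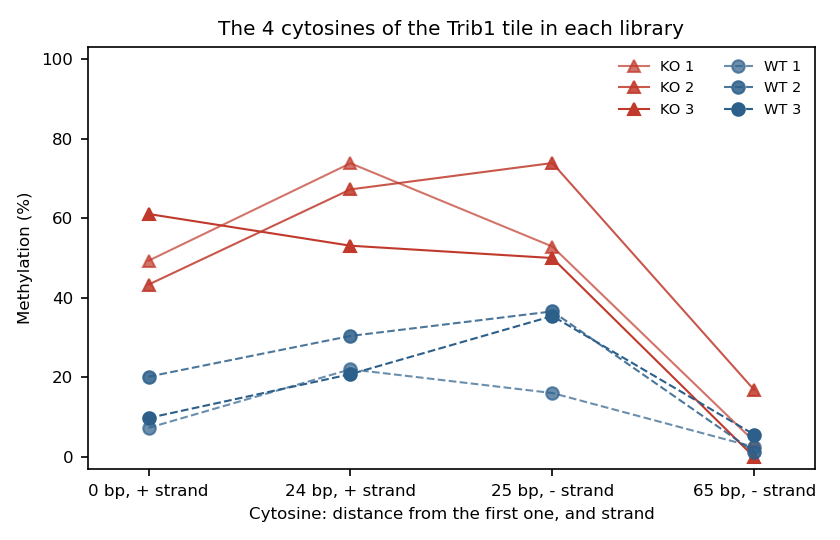
Methylation (%, y axis) of the 4 cytosines of the Trib1 tile in each of 3 KO libraries (triangles, solid lines) and 3 WT libraries (circles, dashed lines), by distance in bp from the first cytosine and by strand (x axis). At the first 3 cytosines the KO libraries lie at 43.3% or above and the WT libraries at 36.6% or below, and at the fourth both are low.

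The stretch lies between unmethylated and methylated DNA. The nearest measured cytosine below it is 2.57 kb away and is the last of the unmethylated run, and the nearest above it is 1.72 kb away. There, the cytosine at 59654613 averaged 40.0% ± 7.74 in KO and 37.2% ± 6.77 in WT, and that at 59654783 averaged 59.0% ± 14.6 and 47.15% ± 12.6, with overlapping libraries at both. Further up, the tile from 59655001 to 59656000 averaged 91.2% ± 1.55 and 87.5% ± 5.01, where WT 1 was lowest at 81.8%. At the edge of the unmethylated run, the tile from 59650001 to 59651000 held 2.21%, 1.38% and 1.64% in the KO libraries and 0.983%, 0.929% and 1.29% in the WT libraries. Here too every KO library was above every WT library, at a difference of 0.739 points. No rate of bisulfite conversion is given here, so levels this low cannot be told from unmethylated cytosine left unconverted.

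Read coverage moved with the difference. The 4 cytosines took 2.22, 1.60 and 1.78 RPM (reads per 1000000 reads at the cytosines measured in all libraries) in the KO libraries and 2.56, 2.40 and 2.65 in the WT libraries, with every KO library below every WT library and a ratio of means of 0.736 (exact permutation p = 0.1, two-sided, the smallest that 3 against 3 libraries allow). Its part in the methylation difference was not tested. With each cytosine weighted equally the methylation difference was 28.1 points.

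A tile was called when its adjusted p was under 0.05 (quasi-binomial model, Benjamini-Hochberg over all tiles) and its difference at least 10 points. By this rule 1 of the 42 tiles was called, that of Trib1, against 0.112% of all tested tiles. Because Trib1 was chosen from this same contrast, nothing can be read from that count. The Trib1 tile was number 10 by size among the 122 called tiles, all of which were higher in KO, and their gains ran from 10.1 to 38.3 points. It had fewer cytosines than most, since the median called tile held 7.5 and 24 of the 122 held fewer than 5. The call was kept with each library left out in turn, when the difference ran from 26.3 (without WT 1) to 31.0 points (without WT 2). Since the tile was known to differ in these libraries, that adds no independent support. The call was not kept in every setting. It was lost with limma, without moderation of the overdispersion, with equal weights for cytosines and with the replicate block, each of which called 0 tiles of the genome. At an unadjusted p under 0.05 these settings had 5511, 4360, 5865 and 5554 tiles higher in KO and 1640, 1408, 2207 and 1511 lower. A minimum of 5 cytosines per tile also removed it, since the tile holds 4.

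**Figure D3:**
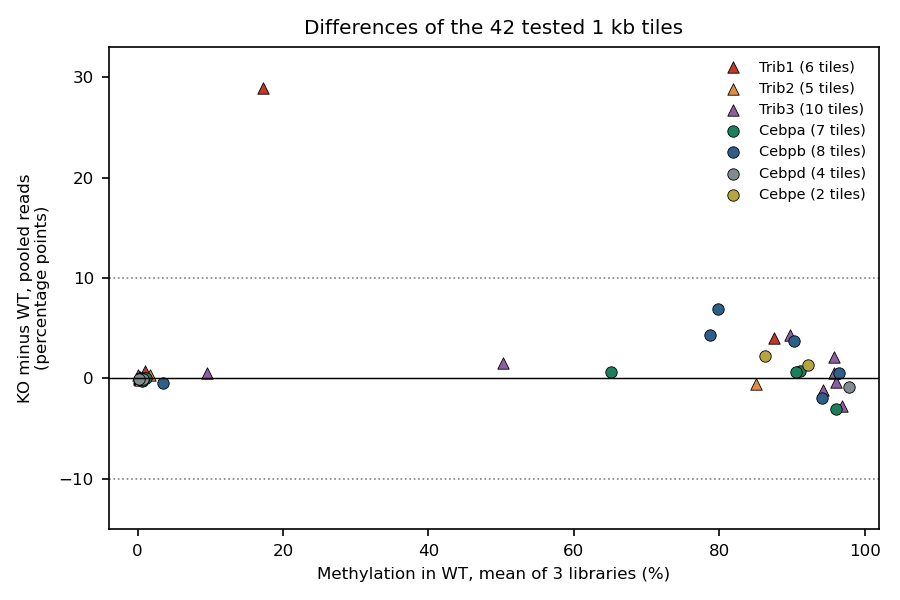
Difference KO minus WT in percentage points of pooled reads (y axis) against the mean methylation of the 3 WT libraries (%, x axis) for the 42 tested tiles, coloured by gene, with dotted lines at the minimum difference of 10 points in either direction. The Trib1 tile stands at 28.9 points, and the other 41 lie between -3.04 and 6.90 points.

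The other 41 tiles lay between -3.04 and 6.90 points, with a median of 0.0869. Over all 42, 25 were higher and 17 lower in KO, or 59.5% higher, against 59.8% of all tested tiles, and the median difference was 0.118 points against 0.176. Every KO library lay above every WT library in 5 tiles, or 11.9%, against 8.35% of all tiles, and below in 1, or 2.38%, against 3.36%. These shares were near those of the genome, in the plot of tile differences as in the counts.

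Trib2, the Tribbles gene most tied to leukaemia by its action on C/EBPα, had 5 tiles, and 4 of them were lower in KO. All but 1 of these 4 stood at 0.0846% to 0.4675% in KO and 0.283% to 0.480% in WT. Their differences of -0.178 to -0.0146 points are at levels that cannot be told from unconverted cytosine. The largest Trib2 difference was -0.511 points, in a tile of 5 cytosines inside the gene (chromosome 12, 15798001 to 15799000). That tile stood at 86.9%, 79.5% and 88.0% in KO and at 87.5%, 83.8% and 84.0% in WT, with KO 2 lowest. Its direction rested on single libraries, since the difference was 2.53 points without KO 2 and 0.553 points without WT 1. A single cytosine at 15801024, inside the miRNA gene Mir6387 that lies in the Trib2 span, averaged 72.2% ± 20.3 in KO and 57.1% ± 21.1 in WT. It only just met the coverage minimum, with 10 reads in KO 2, and its libraries overlapped.

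Trib3 had 10 tiles, 7 of them higher in KO. The largest difference, 4.32 points, lay above its upper end (chromosome 2, 152345001 to 152346000, 4 cytosines), where KO libraries stood at 100%, 91.9% and 94.0% and WT libraries at 86.6%, 89.8% and 92.9%. KO 2 was below WT 3, so the groups overlapped. The 100% in KO 1 rests on 131 reads, the fewest of any library there. The intermediate tile under Rbck1, from 152331001 to 152332000, averaged 51.8% ± 9.32 over the KO libraries and 50.3% ± 4.82 over the WT libraries.

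Among the C/EBP genes the largest difference was below Cebpb, a factor of inflammation and macrophages. The tile at 167686001 to 167687000 (3 cytosines) measured 91.1%, 82.9% and 85.7% in KO and 78.2%, 81.4% and 79.8% in WT. The next tile up (3 cytosines) measured 84.5%, 79.1% and 85.4% in KO and 78.6%, 79.0% and 78.8% in WT. By pooled reads the libraries did not overlap in either, though in the second tile KO 2 lay only just above WT 2. The differences were 6.90 and 4.32 points, and with each cytosine weighted equally they were 3.62 and 2.08 points. With equal weights the libraries overlapped in both tiles, as they did at each single cytosine. The largest gains of the 2 tiles were at 167686967 and 167687002, minus strand cytosines on either side of the tile border. Their read numbers were near equal (148 and 152 in KO 1, 222 and 224 in WT 1). The 2 tiles may therefore share reads and cannot be counted as independent. Inside Cebpb, 117 cytosines from 167689001 to 167690000 also separated, at 0.345% ± 0.0333 in KO and 0.261% ± 0.0332 in WT, 0.0869 points apart. Methylation at such levels cannot be told from unconverted cytosine.

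Cebpa, the C/EBP factor that starts granulocyte fate, held the 1 tile in which all KO libraries were below all WT libraries. It lies just below the gene (chromosome 7, 35118001 to 35119000, 35 cytosines), at 0.358% ± 0.0620 in KO and 0.632% ± 0.125 in WT. These levels too cannot be told from unconverted cytosine. The largest Cebpa difference, -3.04 points, was in a tile of 3 cytosines from 35113001 to 35114000, at 94.0% ± 5.26 and 96.1% ± 3.77 with overlapping libraries, and the difference was -1.01 points without KO 3 and -1.11 without WT 1. Cebpd had 4 tiles, all slightly lower in KO, between -0.850 and -0.00785 points. The largest of these was in a tile above the gene in the span of Spidr (15897001 to 15898000), at 97.0% ± 1.25 and 97.9% ± 1.99, and without WT 1 its difference was 0.143 points. Cebpe had 2 tiles, higher in KO by 1.30 and 2.24 points, with overlapping libraries in both. The 2.24 points over the upper end became -0.678 without WT 1 and 4.68 without WT 3.

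Single cytosines of intermediate methylation were mostly higher in KO. Outside the Trib1 tile the 7 windows held 41 cytosines between 10% and 90%, and 29 of them, or 70.7%, had a higher mean in KO, against 57.7% of all such cytosines. Their median difference was 2.76 points, against 1.46, and ranged from -14.0 to 16.7. Every KO library was above every WT library at 2 of the 41 and below at 2, against 8.02% and 3.81% of all such cytosines. The 2 above were at 167695688 near Cebpb, with 82.1% ± 5.47 in KO and 72.1% ± 2.53 in WT, and at 54711924 in Cebpe, with 91.15% ± 6.15 and 81.8% ± 3.62. The 2 below were at 35129039 near Cebpa, with 49.3% ± 5.03 and 58.9% ± 4.17, and at 167688436 below Cebpb, with 33.2% ± 2.54 and 37.6% ± 1.38. These cytosines lie near each other and share reads, so they are not independent.

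Strands of the same CpG were close when averaged over the 6 libraries, and less so within a genotype. At 215 CpG dinucleotides of the 7 windows both cytosines were measured, and the 6-library means of the strands differed by a median of 0.366 points and at most by 8.30 points, at a CpG of Cebpe. Of the 1049 cytosines of the windows, 906 averaged below 10%, where strands have little room to differ. The median therefore says little about methylated CpG dinucleotides, which were not summarised apart. At the Trib1 CpG read on both strands, the cytosines of both strands were higher in all KO libraries, although in KO 1 they stood at 73.8% and 52.9%. Of the separated single cytosines above, the partner of 54711924 in Cebpe, at 54711925, stood at 78.0% ± 6.91 in KO and 78.3% ± 1.60 in WT. The partner of 35129039 near Cebpa, at 35129038, stood at 62.3% ± 4.19 and 60.3% ± 2.24. Libraries overlapped at both partners, so the difference there was seen on 1 strand only.

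Coverage of the windows, which the rule for the genes used as a minimum per cytosine but not as a contrast, was lower in KO in its mean at all 7 genes. At Cebpd the KO libraries took 84.2, 79.7 and 89.8 RPM and the WT libraries 97.3, 94.1 and 93.2. At Trib3 the KO libraries took 62.1, 60.1 and 61.0 and the WT libraries 65.0, 66.0 and 68.7. These 2 windows separated the genotypes (exact permutation p = 0.1 each, two-sided, the smallest possible, and 0.35 adjusted over the 7 windows), and the other 5 overlapped, with p between 0.2 and 0.7. Over the whole series, cytosines below 10% methylation took 64.0% ± 1.60 of reads in KO and 69.2% ± 2.24 in WT, with all KO libraries below all WT libraries. The ratio of KO to WT was 0.924 for this share, and ran from 0.872 (Cebpe) to 0.967 (Cebpb) over the 7 windows. The part of this lower share in the window coverage was not tested. No counts over other gene windows are given, so whether lower coverage is particular to these genes is not known.

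**Figure D4:**
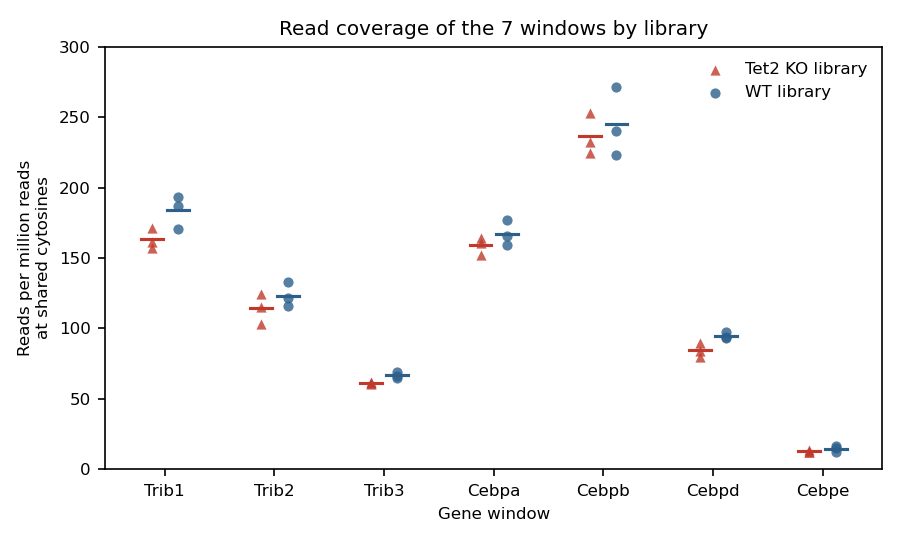
Coverage in RPM, counted at the cytosines measured in all libraries (y axis) in each gene window (x axis), for 3 KO libraries (triangles) and 3 WT libraries (circles), with horizontal bars at the means. KO means lie below WT means at all 7 genes, and the libraries separate at Trib3 and Cebpd.

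Means over a whole window depended on how cytosines were weighted. By pooled reads the windows of Trib2 and Trib3 were higher in KO by 1.31 and 3.67 points, and with each cytosine weighted equally by 0.123 and 0.887 points. The Cebpd window was higher by 0.688 points by pooled reads and differed by -0.0630 points with equal weights. The Trib1 window was higher by both, at 0.473 and 0.818 points, and with equal weights stood at 3.73% ± 0.173 in KO and 2.92% ± 0.133 in WT. By pooled reads and by equal weights, the differences were 0.233 and -0.0179 points at Cebpa, 0.431 and 0.179 at Cebpb, and 1.34 and 1.75 at Cebpe.

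Genes that work with Tribbles and C/EBP proteins were taken from a list of 26, covering related leucine zipper factors, the COP1 ligase and its partners, kinases bound by Tribbles proteins, partner transcription factors and myeloid targets. Of their 183 tiles 0 were called in either direction by the quasi-binomial rule, and 114, or 62.3%, were higher in KO, with a median difference of 0.101 points. Over all tested tiles the shares were 0.112% called and 59.8% higher in KO, and the median difference 0.176 points. Every KO library was above every WT library in 15 tiles, or 8.20%, and below in 7, or 3.83%, against 8.35% and 3.36% of all tiles, so the list was near the genome in each count. The largest difference was in Ltf, which encodes the neutrophil granule protein lactoferrin (chromosome 9, 111026001 to 111027000), at 80.5% ± 2.42 in KO and 69.8% ± 0.266 in WT. A tile in Il6ra, a chain of the interleukin 6 receptor, stood at 21.1% ± 7.26 and 12.1% ± 1.10. A tile in Runx1, a factor that cooperates with C/EBPα, stood at 91.9% ± 0.214 and 98.3% ± 2.08. The libraries separated in these 3 tiles, and none was called. In Cop1, the ligase that Tribbles proteins recruit, the tile with the largest difference stood at 0.121% ± 0.0794 and 0.0781% ± 0.0408.

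The 3 tiles inside other protein-coding genes whose 6 library values were closest to those of the Trib1 tile lay in Prtg, Map3k20 and Tmem143, at root mean square distances of 4.215, 4.77 and 5.34 points over the 6 libraries. The Prtg tile (chromosome 9, 72902001 to 72903000) averaged 49.3% ± 8.07 in KO and 17.7% ± 4.52 in WT. The Map3k20 tile (chromosome 2, 72379001 to 72380000) stood at 40.2% ± 3.51 and 17.0% ± 6.91, and the Tmem143 tile (chromosome 7, 45909001 to 45910000) at 42.6% ± 3.64 and 21.0% ± 5.74. In all 4 tiles WT 1 was the lowest library, but tiles chosen for closeness to these values would tend to share that, so nothing is read from it. The Prtg and Tmem143 tiles were called and the Map3k20 tile was not.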

How the data were processed

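The 6 libraries, 3 KO and 3 WT, each came with a table of CpG cytosines. The authors aligned with Bismark to GRCm38, per the submitters' processing notes. No source used here gives its version, the trimming or whether duplicates were removed, and PCR duplicates would make counting error look smaller than it is. Per the file headers, the deposited columns hold the coverage, a read count with a minimum of 10 reads for each cytosine of each strand, and 2 values in percent, for reads showing C and for reads showing T. Multiplying percent by coverage gave the C and T counts, which were whole numbers for 100% of entries, allowing for decimal rounding.

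Counts at cytosines with 10 or more reads in all 6 libraries were summed in 1 kb tiles holding at least 3 of them, and 141 tiles with only C or only T were left out. KO and WT were compared with a quasi-binomial model whose overdispersion was moderated over all tiles (limma 3.58.1, R 4.3.3, 12.1 prior degrees of freedom) and held at 1 or above. The model was tested on simulated data. A tile counted for a gene when wholly inside its window, and 17 cytosines of the 7 genes fell in no tested tile. A further 148 cytosines there met the minimum in some libraries only: the 34 found in 5 libraries averaged 19.2%, and 17 of those used, with a lowest coverage of 10 to 12, averaged 4.34%. All 85 measured positions in the RefSeq promoters fell on C or G as their strand requires. The RefSeq table of GRCm38.p6 gave gene spans without exons, so exon, intron and UTR context was not analysed here.

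The genes, lists and alternatives were chosen with earlier results of these data known. Named for each gene were its called tiles, the tile with the largest difference and the tiles over its start (over either end where the start is not given). Other tiles and cytosines were named after their values were seen. Values are mean ± SD over 3 libraries, and differences are KO minus WT of pooled reads. The alternatives were another coverage minimum, removal of extreme coverage, equal weights, shifted tiles, more cytosines per tile, each library left out, a replicate block, no moderation, limma and no minimum difference.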

Additional observations from a re-analysis of the deposited data

How the results depend on the processing

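Of 15 alternatives, those that left out a library, raised the coverage minimum, removed the cytosines of highest coverage, shifted the tile borders or dropped the minimum difference kept 1 called tile among the 7 genes, in Trib1. The count was 0 with limma, without moderation, with equal weights for cytosines (tested by limma on mean percent) and with the replicate block, where 0 tiles of the genome were called instead of 122. It was also 0 with at least 5 cytosines per tile, because the Trib1 tile has 4. The cause of the other losses was not tested. Leaving out 1 library gave 52 to 119 called tiles over the genome, with 52 without KO 2, 52 without WT 1 and 79 without WT 3. The 0 called tiles of the pathway genes stayed 0 in every alternative.

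The Trib1 difference stayed within 1 SD in each alternative that could give it. The higher coverage minimum, the removal of extreme coverage and the shifted borders kept the same 4 cytosines and reads. They gave the same 28.9 points and could not have changed it. As this contrast was known when Trib1 was chosen, the other values too are a description only. With equal weights the window differences became 0.818 points at Trib1, 0.123 at Trib2, 0.887 at Trib3 and -0.0630 at Cebpd. Of 139 values of the 12 other named tiles under the alternatives, 6 moved by over 1 SD, 0 of them on leaving out a library. Their sign turned in 5 of the 12 tiles on leaving out 1 library (from -0.511 to 2.53 at Trib2 without KO 2, for example) and in 3 under another alternative.

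The labels do not say whether same-numbered libraries were paired, so the block was not used for the values above. Deviations of same-numbered libraries correlated at 0.0481, -0.0293 and -0.00736 over 29505 tiles, which does not settle whether they were paired. The choice matters, since 0 tiles of the genome were called with the block. Values in the Trib1 tile rest on 56 to 153 reads per cytosine and library, which limits single cytosines more than the tile.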
